A study of Rattus with 4 samples.

Results

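The genes described are the rat genes that carry numbered names of the C2H2 zinc finger families. They were chosen by name, and whether each encodes C2H2 fingers was not checked. They are the protein-coding genes listed with a symbol that starts with Zfp, Znf, Zbtb, Zscan or Zkscan followed by a digit, without any symbol that starts with Zfp36. The rule used no measured value and gave 263 of the 13731 listed genes, or of 12190 protein-coding ones. By name these were 208 Zfp, 37 Zbtb, 7 Zscan, 6 Znf and 5 Zkscan genes. The Zfp36 clause left out 6 genes. Of these, Zfp36, Zfp36l1 and Zfp36l2 encode CCCH proteins that bind RNA, whereas Zfp362, Zfp365 and Zfp367 were left out for their spelling alone. Zbtb8os is counted among the 263 by its name, although it is a neighbour of a Zbtb gene and not a zinc finger gene itself; it had 1 and 2 input reads and none after precipitation.

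A C2H2 zinc finger is a short fold in which a pair of cysteines and a pair of histidines hold a zinc ion, and arrays of such fingers read DNA sequence. Many of these proteins carry a second domain that recruits repressors: KRAB domains bind Trim28 and through it histone methylation, BTB domains (the B of Zbtb) dimerise and bind corepressors such as Ncor1 and Bcor, and SCAN domains join zinc finger proteins to each other. The family is the largest class of transcription factors in mammals, and most of its mRNAs are scarce.

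RNA precipitated with an antibody to NONO, a nuclear protein that binds RNA and DNA and helps to build paraspeckles, was compared with input RNA by RNA immunoprecipitation sequencing (RIP-seq) in cultured rat cardiac cells. The 2 input libraries are labelled as cells transfected with an empty vector and as having no antibody. The 2 NONO IP libraries carry an anti-NONO antibody label and are labelled as transfected with NONO siRNA, so that precipitation and knockdown cannot be told apart by the labels. The titles name H9C2, a myoblast line of embryonic rat heart, and the growth protocol a rat cardiac fibroblast line. None of the 4 libraries used a control antibody. Whether replicates are separate cultures is not stated, so p-values measure only the spread between these libraries, which may be technical.

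Gene counts summed to between 238776 and 279410 per library, a shallow depth at which 3 reads are between 10.7 and 12.6 CPM (counts scaled to the library's total of gene counts). Ribosomal RNA genes took 42.3% and 41.1% of the input counts and 31.9% and 32.2% of those in the NONO IP, a difference whose part in the results was not tested beyond the scaling without these genes. Nono itself had 21 and 9 input reads against 3 and 3 after precipitation. Of the marker lists, the fibroblast genes (8 of 9 listed, Lum not) held 37430 input reads and 39274 NONO IP reads, almost all on collagens, with 5 input reads of Tcf21. The muscle regulators Myod1, Myf5, Myog and Pax7 were not found by symbol. The 7 skeletal myoblast genes held 15 and 6 reads, all of Des, and the cardiomyocyte genes (8 of 9 listed, Tnni3 not) 103 and 151. The 4 smooth muscle genes held 531 and 519 input reads against 360 and 349. Endothelial genes held 2 and 3 reads and leukocyte genes 6 and 2, with Pecam1, Cdh5, Kdr and Ptprc not listed. These sums are raw reads, not scaled. Within the cardiomyocyte list Tnnt2 had 16 and 39 input reads against 64 and 59, while Myh7 had 10 and 10 against 2 and 2. The lists compare precipitated with input RNA, so these differences cannot be read as differences of cell type. The part of these marker differences in the zinc finger results was not tested. In bulk RNA, fewer cells of a type and less RNA per cell cannot be told apart.

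Pooled over all 263 genes with no filter, zinc finger reads took a larger share of coding reads in the NONO IP than in the input. They made up 0.722% and 0.775% of protein-coding reads before and 1.27% and 1.21% after precipitation. The raw sums were 1021 and 1071 reads against 2282 and 2051 (here and below, the inputs first). The libraries were then scaled by TMM, a method that places the typical gene at no change, which made the NONO IP libraries together 1.50-fold larger than the inputs. On that scale the pooled level was 5464 ± 288 CPM in the inputs and 7527 ± 283 CPM in the NONO IP (SD, n = 2), a 1.38-fold higher level whose exact 95% counting interval is 1.31 to 1.45. Intervals of this kind cover counting error only, since reads carry no molecular identifiers. All protein-coding genes pooled the same way were 0.832-fold the input level. No test was made of the pooled sums.

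The direction of this pooled level depends on the scale. The log2 ratio of NONO IP over input was 0.46 with TMM, 0.89 with library totals, 0.73 as a share of coding reads and 0.67 as a share of reads outside ribosomal RNA, but −0.35 when the deposited RPKM values (reads divided by gene length and by a total for the library) were summed. The totals that the RPKM values were divided by were 2.38 times those of the inputs in the precipitated libraries, and coding genes as a whole lay at −1.06 in summed RPKM. Summed zinc finger RPKM was 451 and 488 against 373 and 365. The zinc finger sum lay above the coding sum by 0.73 with TMM and by 0.71 in RPKM. Between scales of counts that distance is fixed by construction, so RPKM, which weights genes by length, is the only separate value. Changes of single genes below are on the TMM scale.

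**Figure D1:**
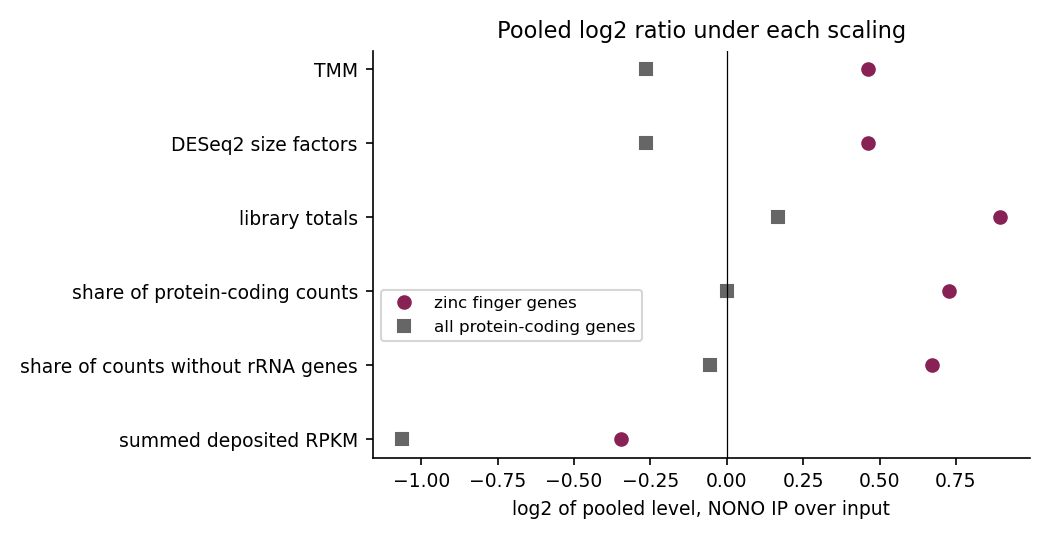
Pooled log2 ratio of NONO IP over input for the 263 zinc finger genes (circles) and for all protein-coding genes (squares) under 6 scalings, each point from the mean of 2 libraries per group. Zinc finger genes lie to the right of coding genes on each scale, but on the negative side in summed RPKM.

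By name, the Zfp and Zbtb sums were both higher. Zbtb genes, which encode BTB domain proteins, had 175 and 225 reads against 601 and 482. After scaling the groups did not overlap, at 2035 and 1722 CPM against 902 and 1191, a 1.8-fold higher pooled level (counting interval 1.61 to 2.03). The Zfp genes had 809 and 809 reads against 1622 and 1515, a 1.29-fold higher level (1.22 to 1.37). Here too the scaled groups did not overlap. In summed RPKM the Zfp ratio was below 1, at −0.44 on the log2 scale, while that of Zbtb genes was 0.05 (0.84 with TMM). The small groups carried too few reads to read a direction. Zscan genes had 12 and 18 against 34 and 30 reads, with a counting interval of the fold from 0.907 to 2.27. Znf genes had 16 and 9 against 15 and 16 (0.472 to 1.46), and Zkscan genes 9 and 10 against 10 and 8 (0.312 to 1.27). The difference between the Zbtb and Zfp folds was not tested.

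**Figure D2:**
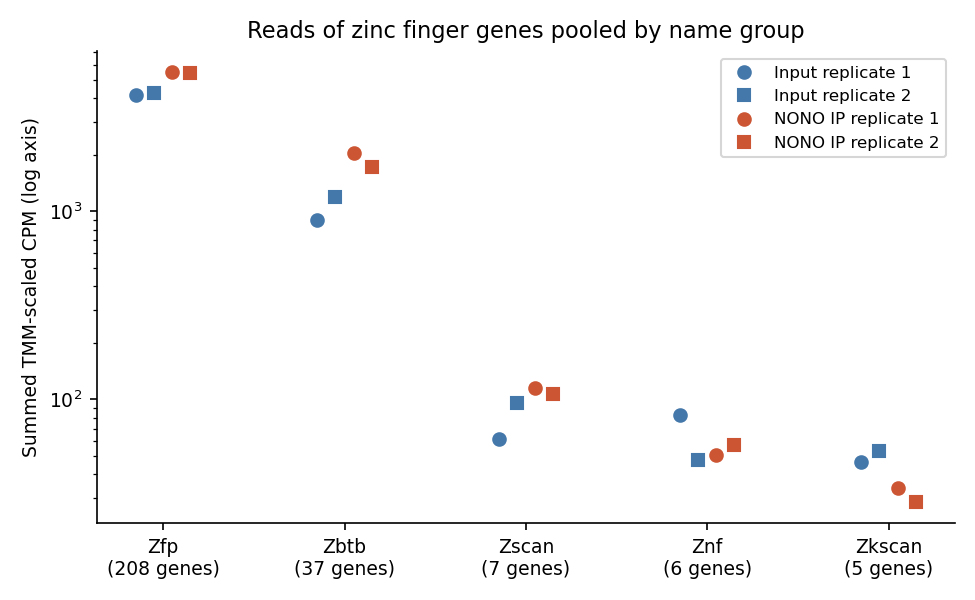
Summed TMM-scaled CPM of the zinc finger genes of each name group (log axis) in the 2 input libraries (blue) and the 2 NONO IP libraries (red), circles for replicate 1 and squares for replicate 2. The Zfp, Zbtb and Zscan sums are higher and the Zkscan sums lower in both NONO IP libraries, whereas the Znf libraries overlap. The Zscan sums rest on at most 34 reads each and the Zkscan sums on at most 10.

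The genes were also divided by their total reads and by length. The totals include the NONO IP reads, so that a rise itself moves a gene to a higher class (Zbtb7c, with 4 input and 73 NONO IP reads, is in the top one), and the folds by class are a description only. The 117 genes with 1 to 5 reads over all 4 libraries together had 66 and 64 reads against 110 and 74, 0.938-fold the input level (0.749 to 1.19). The 78 genes with 6 to 20 reads were at 0.932-fold (0.816 to 1.07). The 41 genes with 21 to 60 reads were at 1.43-fold (1.28 to 1.61), and the 27 genes with more than 60 reads at 1.55-fold (1.45 to 1.67). All protein-coding genes ran between 0.816 and 0.926 in the same 4 classes. Gene length, taken from counts divided by RPKM and relative to the median coding gene, had a median of 1.37 for the zinc finger genes. The 184 that were longer than the median coding gene were at 1.46-fold (1.38 to 1.55), and the 79 others at 0.946-fold (0.824 to 1.09). The same division of all coding genes gave 0.875 and 0.718, so longer genes were higher than shorter ones there as well. The part of length in the zinc finger result was not tested beyond the offset given below.

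**Figure D3:**
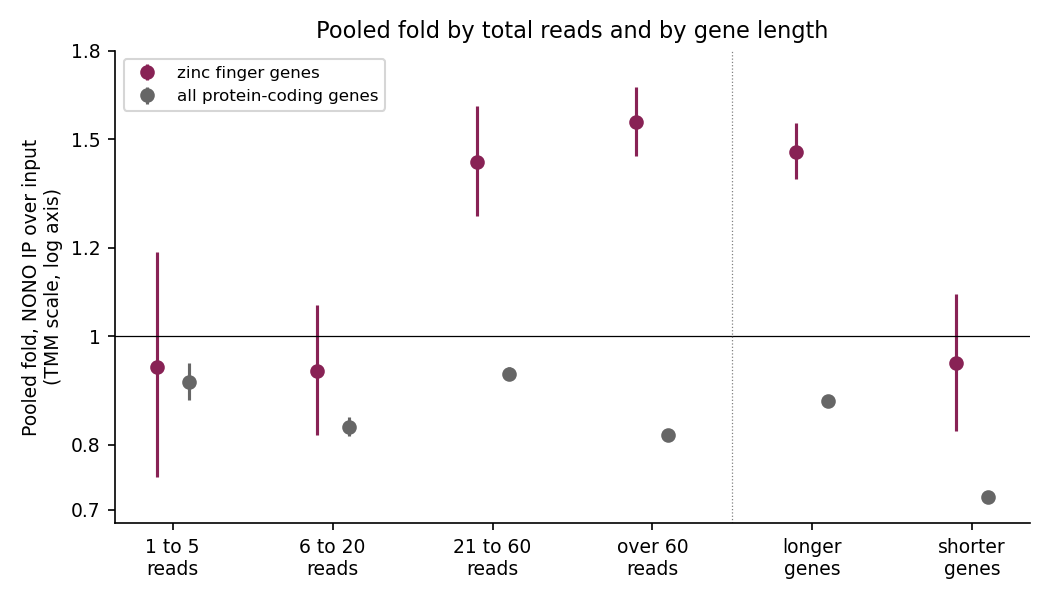
Pooled fold of NONO IP over input (TMM scale, log axis) for zinc finger genes and for all protein-coding genes, by total reads over the 4 libraries and by gene length against the median coding gene; bars are exact 95% counting intervals. Read classes include the NONO IP reads. Zinc finger genes with over 20 reads, and those longer than the median, lie above 1, while all classes of coding genes lie below it.

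Place in the genome divided the genes less. Zinc finger genes lie partly in clusters, and in RefSeq's gene order for GRCr8, taken here for neighbours alone, 262 of the 263 symbols matched and 261 had a place. The 131 genes with no other such gene among the 3 coding genes on each side were at 1.34-fold (1.26 to 1.43). The 71 genes with 1 or 2 such neighbours were at 1.45-fold (1.27 to 1.66) and the 59 with 3 or more at 1.47-fold (1.24 to 1.76), intervals that overlap each other. Chromosome 1 holds the most, 57 genes, at 1.62-fold (1.41 to 1.89), against 1.34-fold (1.27 to 1.42) for the 206 on other chromosomes; coding genes of chromosome 1 were at 0.858-fold.

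Each gene was then tested with edgeR's quasi-likelihood test on the whole table. With all 13731 genes tested, 32 zinc finger genes had a higher and 4 a lower level in the NONO IP at a Benjamini-Hochberg adjusted p under 0.05, which is 12.2% and 1.52% of them, where 8.59% and 4.73% of all genes were called. The NONO IP pair lay wholly above the input pair for 72 genes and wholly below it for 39, or 27.4% and 14.8%, against 22.5% and 22.7% of all genes. By name, 22 of 208 Zfp genes were higher and 4 lower, 10 of 37 Zbtb genes were higher and 0 lower (1 at an unadjusted p under 0.05), and no Zscan, Znf or Zkscan gene was called. In that last group 1 Zscan gene was higher and 1 Znf gene lower at an unadjusted p under 0.05. The median log2 fold change was 0.54, beside 0.30 over all genes. This fit computed its own TMM factors, and its log2 fold changes lie higher than those of the filtered fit below (for Zfp469 −0.47 against −0.69). Filter and scale thus change together between the 2 fits. The zinc finger calls of this fit were all lost without NONO IP replicate 1, and likewise without NONO IP replicate 2, fits that leave 1 library in that group. Without Input replicate 1, or without Input replicate 2, calls remained in both directions. Calls over all genes in these fits are not given here, so the loss cannot be read as particular to zinc finger genes.

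**Figure D4:**
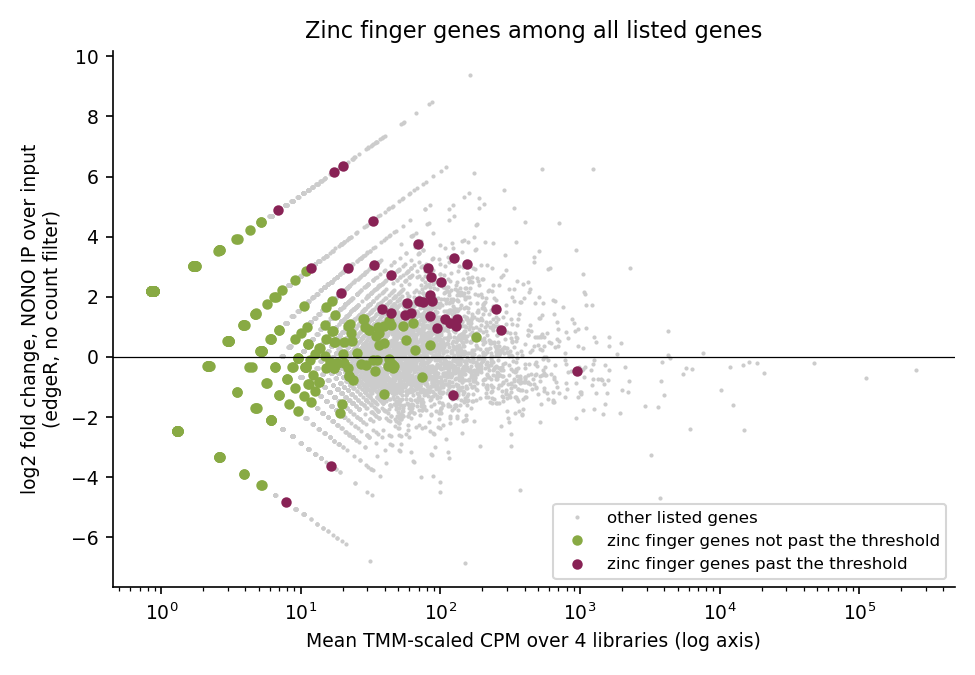
Log2 fold change of NONO IP over input (edgeR, no count filter) against mean TMM-scaled CPM over 4 libraries (log axis) for all 13731 listed genes, with the 263 zinc finger genes coloured by whether they passed the threshold of 0.05. The 36 called genes lie mostly above 0, and the straight rows at the left are genes with a few reads.

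The edgeR filter on low counts, the main form of the test, kept 46 of the 263 genes. Just inside it was Zbtb1, with 33 reads in all, and just outside it Zbtb34, with 40 reads. Of the 46, 24 were higher and 2 lower, where 29.8% of all 2920 tested genes were higher and 26.9% lower. By name these were 17 higher and 2 lower of 33 Zfp genes, 7 higher of 12 Zbtb genes, and neither for Zscan25, the 1 Zscan gene tested. Of the 24 higher genes, 18 held under 23 reads in the inputs together, which is the lowest total of any tested gene over 4 libraries. Of all 46 tested genes, 33 were below that number. That total is not the filter's own limit, since Zbtb34 was left out with 40 reads. These counts therefore do not say how many genes passed only through NONO IP reads. Zfp428, with 2 and 1 input reads, passed through its 14 and 20 NONO IP reads. The filter can thus admit genes through their NONO IP reads, and the count is no measure of the family. On the deposited RPKM scale the groups stood apart in the same direction for 18 of the 24, and the groups overlapped for the other 6. The 24 were called on reads of the same libraries, and no share over all genes is given here. These RPKM counts are therefore a description and no separate support.

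**Figure D5:**
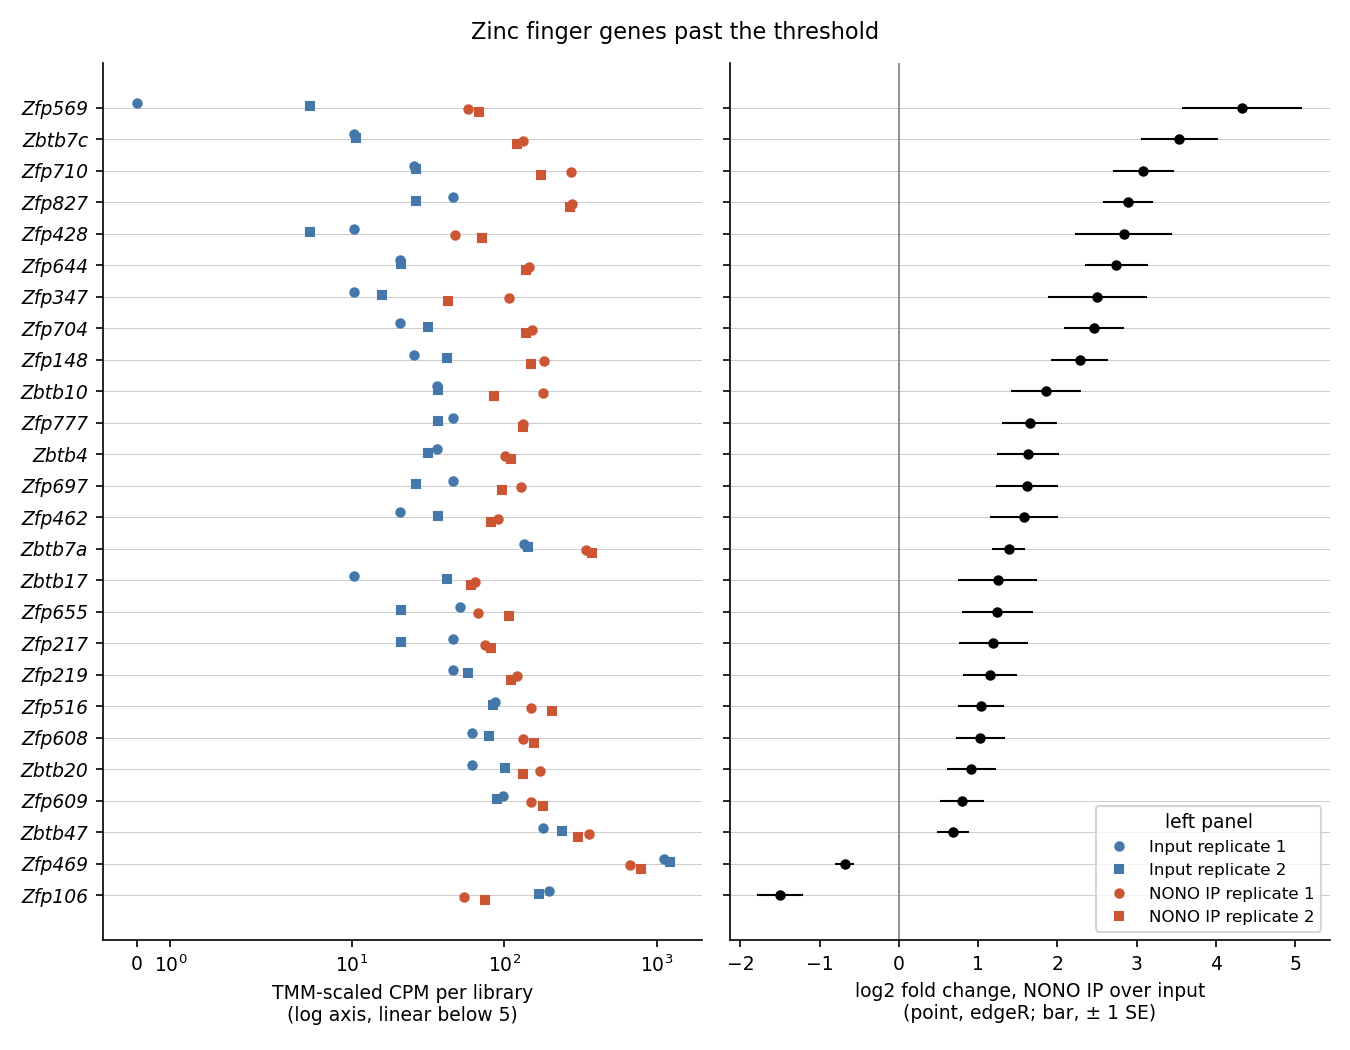
The 26 zinc finger genes past the threshold with the count filter. Left, TMM-scaled CPM in each library (log axis, linear below 5); right, log2 fold change of NONO IP over input with ± 1 SE. Zfp469 and Zfp106, at the bottom, are lower in both NONO IP libraries, and the other 24 are higher in both.

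Among the BTB repressor genes, the 3 Zbtb7 genes were all fitted above 0. Zbtb7a, on chromosome 7, encodes LRF, a transcriptional repressor that silences fetal globin genes. It had 26 and 27 reads against 102 and 106. In both NONO IP libraries it stood clear of both inputs, at 362 against 138 CPM (log2 fold change 1.38, SE 0.20, edgeR adjusted p = 2.29e-05). Zbtb7c, on chromosome 18, had the largest fitted rise of the 12 Zbtb genes that passed the count filter, with 2 and 2 reads against 39 and 34 (log2 fold change 3.54, SE 0.49, adjusted p = 1.07e-05). Its input held 4 reads, so the size is loosely set. An uncharacterised gene that overlaps it in the RefSeq order, LOC102556385, had 0 and 0 against 3 and 2 reads. Zbtb7b, which encodes ThPOK, the factor of helper T cell fate, had 13 and 14 reads against 43 and 26. It did not pass (0.76, SE 0.34, adjusted p = 0.0611), but did with library totals (0.00422) and with all genes tested (0.0486). In the latter fit, which was scaled anew, its log2 fold change was 0.98. Without 1 library that of the filtered fit ran from 0.46 to 1.10.

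The other Zbtb genes that rose spanned a wide range of levels. Zbtb47, on chromosome 8, was the most read of the Zbtb genes, with 35 and 45 reads against 107 and 86 (log2 fold change 0.68, SE 0.20, adjusted p = 0.00786). Zbtb10, on chromosome 2, had 7 and 7 reads against 53 and 24 (1.86, SE 0.44). Its NONO IP libraries differed from each other 2.09-fold after scaling, and both were above the inputs. Zbtb4, on chromosome 10, a protein that binds methylated CpG, had 7 and 6 against 30 and 31 reads (1.63, SE 0.39). Zbtb20, on chromosome 11, a repressor of alpha-fetoprotein in liver, had 12 and 19 against 51 and 37 reads (0.91, SE 0.31), but turned to −1.18 with an offset for gene length (adjusted p = 0.00824). Zbtb17, on chromosome 5, encodes Miz-1, a partner of Myc, and had 2 and 8 against 19 and 17 reads (1.24, SE 0.50, adjusted p = 0.0414). The inputs of Zbtb17 lay far apart, at 26.3 ± 22.6 CPM against 62.5 ± 2.55 in the NONO IP (SD, n = 2).

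Among the Zfp genes, Zfp569, Zfp710, Zfp827 and Zfp428 had the largest fitted rises with the count filter, each on at most 14 input reads in all. Zfp569, on chromosome 1, had 0 and 1 reads against 17 and 19, 24.0 times as many after scaling (counting interval 4.04 to 973). Zfp428, also on chromosome 1, had 2 and 1 against 14 and 20 reads, a ratio of 7.55 (2.37 to 38.4). Both groups stood apart for each gene, while the counts set the size of neither closely. Zfp710, on chromosome 1, rose, with 5 and 5 reads against 81 and 49 (log2 fold change 3.09, SE 0.39, adjusted p = 4.03e-06). Zfp827, on chromosome 19, whose protein brings the NuRD remodeller to telomeres, rose from 9 and 5 to 82 and 76 reads. That is 36.4 ± 14.1 against 275 ± 4.35 CPM (SD, n = 2; log2 fold change 2.89, SE 0.31, adjusted p = 6.27e-07), the smallest adjusted p of the family.

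Further Zfp genes rose at least 4-fold. Zfp644, on chromosome 14, encodes a partner of the histone methyltransferases G9a and GLP and had 4 and 4 against 43 and 39 reads (log2 fold change 2.74, SE 0.40). Zfp704, on chromosome 2, had 4 and 6 against 45 and 39 (2.46, SE 0.38). Zfp148, on chromosome 11, encodes ZBP-89, which binds GC-rich promoters, and had 5 and 8 against 54 and 42 (2.28, SE 0.36). For these 3 genes each NONO IP library held at least 5 times the reads of either input. Zfp347, on chromosome 7, had 2 and 3 against 32 and 12 reads (2.50, SE 0.62). Its NONO IP libraries differed 2.53-fold from each other after scaling, the widest gap among the 26 called genes.

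Rises of 2-fold to 4-fold were those of Zfp777 (log2 fold change 1.65, SE 0.34), Zfp697 (1.61, SE 0.39), Zfp462 (1.58, SE 0.43), Zfp655 (1.24, SE 0.45), Zfp217 (1.19, SE 0.43), Zfp219 (1.15, SE 0.34), Zfp516 (1.04, SE 0.29) and Zfp608 (1.03, SE 0.30). Zfp217 encodes an oncogenic partner of corepressors, Zfp516 an activator of brown fat genes, and Zfp219 a cofactor of Sox9 in cartilage. Zfp516 had 17 and 16 against 44 and 58 reads. Zfp219 had 9 and 11 against 36 and 31 reads. Its neighbour Arhgef40, which overlaps it in the RefSeq order, went the other way, with 75 and 82 against 62 and 83 reads (log2 fold change −0.70, SE 0.19, adjusted p = 0.00449). Zfp608 and Zfp609 are paralogs and were alike: 12 and 15 against 39 and 44 reads for Zfp608, and 19 and 17 against 44 and 50 for Zfp609, which rose by 0.80 (SE 0.28, adjusted p = 0.0208). Whether these folds differ was not tested.

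Both genes that fell had many input reads. Zfp469, on chromosome 19, is the counterpart of a human gene whose loss thins the cornea in brittle cornea syndrome, a disorder of collagen-rich tissue. It had more reads than any other zinc finger gene, 216 and 231 against 197 and 220, which is 21.4% of all zinc finger reads in the inputs and 9.62% in the NONO IP. After scaling the level went from 1168 ± 77.6 to 726 ± 84.1 CPM (SD, n = 2; log2 fold change −0.69, SE 0.12, adjusted p = 9.99e-05). With library totals the value was −0.22 and the call ended (adjusted p = 0.115). Zfp106, on chromosome 3, a zinc finger protein that binds RNA and is needed by motor neurons, fell, with 38 and 32 against 16 and 21 reads (−1.50, SE 0.29, adjusted p = 0.000309). It was lower in raw reads as well as after scaling.

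The strength of these calls was uneven. Leaving out each library in turn kept 15 of the 26 calls and ended 11 at least once. Without Input replicate 1 the adjusted p was 0.173 for Zbtb47, 0.0702 for Zfp609, 0.218 for Zbtb20, 0.0832 for Zfp608, 0.0658 for Zfp219, 0.0578 for Zfp462 and 0.453 for Zbtb17. Without Input replicate 2 it was 0.135 for Zfp609, 0.244 for Zfp655 and 0.271 for Zfp217. Without NONO IP replicate 1 it was 0.0959 for Zbtb20, 0.181 for Zfp347 and 0.134 for Zbtb17. Without NONO IP replicate 2 it was 0.0789 for Zfp609, 0.156 for Zfp655, 0.0640 for Zfp217, 0.0803 for Zbtb17 and 0.0721 for Zfp428. The values of Zbtb17 ran from 0.53 to 2.49 on the log2 scale, and those of Zfp217 and Zfp655 from 0.69 to 1.83 and 1.99.

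The DESeq2 Wald test, on the same 46 genes, called 13 higher and 2 lower (15.5% and 14.5% of all genes) and ended the calls of Zbtb47, Zfp516, Zfp609, Zbtb20, Zfp608, Zfp219, Zbtb4, Zfp655, Zfp462, Zfp217 and Zbtb17. With an offset for gene length 18 were higher and 4 lower (27.5% and 21.3% of all genes). That offset ended the calls of Zfp609, Zfp608, Zfp655, Zfp462 and Zfp217 and reversed Zbtb20, the zinc finger gene with the longest counted length of those called. On the RPKM scales with pseudocounts of 1 and 0.1, 117 zinc finger genes were tested, of which 6 and 4 were higher and 10 and 8 lower (all genes 5.19% and 4.59% higher, 18.8% and 15.1% lower). Their median was −0.09 and −0.07, where all genes lay at −0.61 and −0.82.

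The 20 tested genes that did not pass lay between −0.88 and 0.99 on the log2 scale, 13 above 0 and 7 below. The most abundant of them was Zfp91, on chromosome 1, which encodes an unusual ubiquitin ligase of the NF-κB pathway, at 23 and 36 against 69 and 51 reads (0.43, SE 0.26, adjusted p = 0.160). It passed with library totals (adjusted p = 0.00634) and without NONO IP replicate 2 (0.0408). Zfp598, a ubiquitin ligase that marks collided ribosomes, had 15 and 15 against 25 and 26 reads (0.18, SE 0.32, adjusted p = 0.662). Zscan25 had 12 and 13 against 22 and 16 (0.02, SE 0.37, adjusted p = 0.973), the value nearest 0. Zfp142 had 25 and 12 against 11 and 19 (−0.88, SE 0.41, adjusted p = 0.0748). It passed without Input replicate 2 (adjusted p = 0.00314), without NONO IP replicate 2 (0.0208) and with the length offset (0.0251). Zfp592, Zfp532 and Zfp687, whose proteins form a complex with the chromatin reader Zmynd8, were at 0.90 (SE 0.38, adjusted p = 0.0512), 0.99 (SE 0.46, 0.0730) and 0.33 (SE 0.44, 0.539); these 3 were picked after their values were seen.

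Below the count filter lay 217 genes, whose pooled level was 1.05-fold the input (0.959 to 1.16). With all genes tested, 7 of them were higher and 2 lower. Zbtb16, on chromosome 8, encodes PLZF, a repressor of stem cell and lymphocyte programmes. It had no read in either input and 13 and 10 in the NONO IP (adjusted p = 0.000157). With the inputs together set at 3 reads that is 5.11-fold higher, and the lower limit of the counting interval is 3.83. Zfp787 had 0 and 0 against 11 and 9 reads (adjusted p = 0.000382), 4.44-fold higher by the same setting (lower limit 3.29). Zfp202 had 0 and 0 against 6 and 2 (adjusted p = 0.0447), 1.78-fold higher (lower limit 1.14). In each case the groups stood apart, on a few reads.

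Zfp853 had 2 and 0 against 12 and 10 reads, a ratio of 7.33 (counting interval 1.8 to 64.3). Zfp423, a factor of fat cell commitment, had 2 and 1 against 10 and 8 (a ratio of 4, interval 1.17 to 21.2). Zbtb34 had 5 and 3 against 22 and 10 (a ratio of 2.66, interval 1.2 to 6.69, adjusted p = 0.0432). The seventh was Zfp263, with 1 and 0 against 4 and 8 reads (adjusted p = 0.0466). Of those lower, Zfp207, which encodes the spindle protein BuGZ, had 7 and 5 against 1 and 0 reads, 18.0-fold less (interval 2.67 to 770). Zfp260, a zinc finger factor of cardiac muscle that works with Gata4, had 2 and 4 against 0 and 0. With the NONO IP libraries together set at 3 reads that is 3-fold lower, and the lower limit of the counting interval is 1.77. With no count filter, no zinc finger call was left once NONO IP replicate 1 or replicate 2 was dropped, as given above. Leaving out each library in turn therefore could not set apart the 8 calls checked here (all but that of Zfp263). Their highest adjusted p was 0.318 for Zbtb16, 0.331 for Zfp787, 0.574 for Zfp202 and for Zbtb34, 0.436 for Zfp853, 0.344 for Zfp423, 0.270 for Zfp207 and 0.448 for Zfp260.

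The 5 most read genes under the filter that were not called were Zfp512b, Znf740, Zbtb38, Zfp335 and Zfp523. Zbtb38, a protein that binds methylated CpG, shows how loosely these counts are set: its inputs had 4 and 18 reads and its NONO IP libraries 7 and 5. The fitted value of Zbtb38 was −1.22 (adjusted p = 0.176), −2.04 without Input replicate 1 (adjusted p = 0.00711) and 0.13 without Input replicate 2 (0.929). Zfp512b had 4 and 6 against 10 and 16 reads, and Znf740, the most read Znf gene, 9 and 4 against 9 and 13. Zfp335, a factor of neural progenitors, had 7 and 7 against 8 and 9, and Zfp523 had 3 and 6 against 15 and 7.

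Per length, the order of the genes also differed between the groups. In RPKM, Zfp469 was first in both, at 44 and 48.7 against 16.4 and 20.2. Behind it in the inputs came Zfp91 (12.2 and 19.9), Zscan25 (13.8 and 15.5) and Zbtb47 (11.2 and 14.9), which overlap each other. In the NONO IP the second was Zbtb7a, at 14.3 and 16.4, from rank 10 in the inputs, and its libraries overlap those of Zfp91 (15 and 12.2). Zbtb7c went from rank 113 of 263 in the inputs, at 1.05 and 1.09, to rank 8, at 8.35 and 8.02. Zfp106 went from rank 9 to rank 48, at 9.93 and 8.67 against 1.71 and 2.47. The median gene of the family was at 0.865 RPKM in the inputs and 0.510 in the NONO IP.

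C2H2 genes with other names moved in the same direction more than against it. Of a list of 105 such genes, 81 were listed and 26 tested; 16 rose and 2 fell (29.8% and 26.9% of all tested genes), with a median log2 fold change of 1.23 where all genes lay at 0.02. Pooled over the 81, they had 428 and 379 input reads against 1287 and 1176, a 2.03-fold higher level (1.88 to 2.20). The list is open to the same selection by the count filter, and was written with earlier results of these data known. With all genes tested, 20 of the 81 were higher and 2 lower (24.7% and 2.47%, all genes 8.59% and 4.73%). Zfhx3, a large homeodomain and zinc finger factor of atrial rhythm, rose from 35 and 36 to 175 and 154 reads (1.62, SE 0.17), and this call ended with the length offset (0.36, adjusted p = 0.101). Sp3, which binds GC boxes, had 15 and 9 against 86 and 104 reads (2.39, SE 0.28). Zfpm2, or FOG2, the partner of Gata4 in heart development, had 5 and 9 against 79 and 67 (2.78, SE 0.33). Hivep2 rose by 2.08 (SE 0.28) and Zeb1, a repressor of epithelial genes, by 2.56 (SE 0.36).

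The 2 that fell were Egr1, an immediate early gene, at 13 and 12 against 1 and 8 reads (−2.02, SE 0.55, adjusted p = 0.00479), and Rest, the repressor of neuronal genes, with 28 and 19 against 21 and 17 (−0.89, SE 0.32, adjusted p = 0.0250). Neither held in the DESeq2 Wald test (adjusted p = 0.0787 and 0.211). Without Input replicate 1 the adjusted p was 0.0828 and 0.222, and without NONO IP replicate 1 it was 0.135 and 0.0594. Egr1 also lost its call without Input replicate 2 (adjusted p = 0.0540) and with the length offset (0.116), and Rest without NONO IP replicate 2 (0.118), with library totals (0.261) and with no count filter (0.235).

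The corepressors that zinc finger proteins recruit did not move as one. Of 35 genes listed, 15 were tested, 6 rose and 3 fell (29.8% and 26.9% of all tested genes), with a median log2 fold change of 0.36 where all genes lay at 0.02. Ncor1, a corepressor of nuclear receptors, fell, with 21 and 19 against 12 and 18 reads (log2 fold change −0.99, SE 0.36, adjusted p = 0.0242). Cbx3, a heterochromatin protein with processed pseudogenes that may share its reads, had 4 and 3 against 38 and 37 reads (2.80, SE 0.42). Tbl1xr1, of the same complex as Ncor1, had 1 and 3 against 28 and 20 (2.94, SE 0.56). The BTB partners Bcor (0.93, SE 0.31) and Bcorl1 (2.11, SE 0.58), both on chromosome X, rose as well.

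Trim28, the protein that KRAB domains bind, fell from 22 and 22 to 7 and 17 reads (−1.45, SE 0.40, adjusted p = 0.00493), and Chd4, the NuRD remodeller, had 54 and 50 against 47 and 52 (−0.66, SE 0.21, adjusted p = 0.0124). The DESeq2 Wald test called neither, nor Ncor1, Bcor or Bcorl1 (adjusted p = 0.0673 for Trim28, 0.157 for Chd4, 0.202 for Ncor1, 0.187 for Bcor and 0.128 for Bcorl1). With library totals Ncor1 and Chd4 were at −0.53 and −0.19, with adjusted p = 0.209 and 0.447, and with no count filter the adjusted p was 0.199 and 0.254. The length offset ended the call of Bcor (0.68, adjusted p = 0.0808). Leaving out 1 library at a time, the highest adjusted p was 0.0978 for Trim28 (without NONO IP replicate 1), 0.119 for Chd4 and 0.237 for Ncor1 (both without NONO IP replicate 1), 0.142 for Bcorl1 and 0.0944 for Bcor (both without Input replicate 2).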

How the data were processed

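Over 13731 genes, 2 input and 2 NONO IP libraries were measured. As deposited, counts are unnormalised whole numbers of reads for each gene, from the values. RPKM as deposited by the authors divides reads by gene length and a library total. HISAT2, HOMER and the build mRatBN7.2 are named in the submitters' processing notes with no role. The counter, strand setting and annotation were not given in the sources used here, so reads of overlapping genes, antisense genes and near-identical paralogs are uncertain. Libraries were poly(A)-selected and stranded, per the labels' protocols.

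Genes were tested by quasi-likelihood in edgeR 4.0.16 under R 4.3.3, with TMM scaling and filterByExpr, which kept 2920 genes; adjusted p-values are Benjamini-Hochberg over all genes tested, at 0.05. SE is the log2 fold change over the root of F. CPM are relative to the TMM-scaled total of the tested genes. Alternatives were DESeq2 (1.42.0), limma (3.58.1) on log2 RPKM, other scalings and filters, a loess offset for relative gene length (span 0.5), a replicate block and leaving out each library. Exact intervals are conditional binomial at 95%. On simulated data the filtered test recovered 53.5% of genes changed 1 log2 unit and 97.7% of those changed 2, among 2652 genes. With no filter it recovered 6.9% and 15.5% among 12595. Each simulation gave all genes the same dispersion, so recovery may be overstated for genes whose replicates differ more. Each also changed far fewer genes than were called in the data, which makes the adjusted threshold harder to pass. The recoveries are therefore not the power of the test on these data. The genes and lists were chosen with earlier results of these data known. Named were all called genes, the 5 most abundant tested genes not called, 8 called and 5 uncalled genes below the filter, and up to 5 per direction of the other lists. Of these, 1 gene is not reported here. No protein or promoter sequences were used here.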

Additional observations from a re-analysis of the deposited data

How the results depend on the processing

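Among zinc finger genes, the 24 higher and 2 lower calls became 13 and 2 by the DESeq2 Wald test, 3 and 1 with at least 50 counts in 2 libraries (5 genes tested; 42.3% and 41.2% of all genes), 31 and 1 with library totals (41.7% and 15.2% of all genes), 18 and 4 with the length offset, and 6 and 10 or 4 and 8 with limma on log2(RPKM + 1) or log2(RPKM + 0.1). With no count filter 32 were higher and 4 lower. Leaving out a library gave 20 to 22 higher and 2 to 3 lower, or with no count filter 0 to 23 higher and 0 to 3 lower; the cause was not tested. The pooled log2 ratio of 0.46 became 0.89 with library totals, 0.73 as a share of coding counts, 0.67 without rRNA genes, −0.35 in summed RPKM, 0.63 and 0.073 for genes that pass and do not pass the filter, and 0.58 without the 5 most read genes; without 1 library it ran from 0.41 to 0.52. In summed RPKM the pooled Zfp and Zscan ratios turned to −0.44 and −0.38. The pooled Znf ratio of −0.27 turned to 0.17 with library totals and 0.18 without Input replicate 1.

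For other C2H2 genes, 16 higher and 2 lower calls became 9 and 0 by DESeq2 (1 lower at an unadjusted p under 0.05), 5 and 0 with at least 50 counts (0 lower at an unadjusted p under 0.05), 18 and 1 with library totals, 14 and 1 with the length offset, 12 and 1 with length offset and replicate block, and 3 and 3 or 2 and 3 on the RPKM scales. Without 1 library fewer were called in either direction. For corepressors, 6 and 3 became 3 and 0 by DESeq2 (1 lower at an unadjusted p under 0.05), 1 and 1 with at least 50 counts, 8 and 1 with library totals, 6 and 1 with no count filter (8.59% and 4.73% of all genes), and 2 and 3 or 2 and 1 on the RPKM scales. Without 1 library these numbers could change as well.

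Zbtb20 turned to −1.18 with the length offset, with and without the block. Signs of genes that were not called also turned: on the RPKM scales Zfp91 to −0.19 and −0.20, Zfp598 to −0.44 and −0.48 and Zscan25 to −0.61 and −0.66; without Input replicate 1 and without NONO IP replicate 1 Zscan25 to −0.09 and −0.13 (range without 1 library −0.13 to 0.25); without Input replicate 2 Znf740 to −0.16 and Zbtb38 to 0.13 (ranges −0.16 to 0.97 and −2.04 to 0.13); and Zfp335 to 0.12 with library totals.

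Same-numbered libraries deviated together only weakly (correlation 0.05 over genes), and the labels do not pair them. With the replicate block 25 of 46 zinc finger genes were higher and 2 lower, at a median log2 fold change of 0.91 where all genes lay at 0.02. With block and length offset 19 and 4 were, at a median of 0.78 where all genes lay at 0.12. With no count filter the block gave 31 and 3 and ended the calls of Zfp202 (adjusted p = 0.211) and Zfp260 (0.315). The shares of all genes called in these block fits are not given here. Depth limits the single genes: 117 of the 263 had at most 5 reads in all.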
